A study of Mus musculus with 56 samples.

Results

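Hephl1, Dnmt3l, Mycl and AA914427 are 4 of the 25939 genes measured in mouse visceral adipose tissue (VAT) under inverted feeding. They were selected on their measured levels, by a strong weight on the main axis along which feeding regimen and time of day acted together, so their response to feeding is given below as a description without a test, and the tests between regimens and between light phases are not independent of that choice. The axis was recomputed here as the first principal component of log2(CPM + 1) over 24529 genes, CPM being the reads of a gene per 1000000 of the effective library size recovered from the deposited values, where it carried 22.0% of the variance. By absolute weight Hephl1 ranked 1, AA914427 ranked 7, Mycl ranked 12 and Dnmt3l ranked 13. The rule set no numerical limit, and the genes at ranks 2 to 6 were Ppp1r3b, Pck1, Scd2, Angptl8 and Acly. Of the variance of the axis, 57.3% was regimen by time, 10.6% time, 4.42% regimen and 27.7% between mice of a single group.

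The 56 libraries came from 56 female C57BL/6J mice, 9 weeks old and without any engineered allele in the labels, kept for 7 days on daytime-restricted feeding (DRF, food in the light phase) or nighttime-restricted feeding (NRF, food in the dark phase, the control). Each regimen was sampled every 4 h from ZT0, the time of lights on, to ZT24, with 4 mice in each of the 14 groups and no mouse sampled more than once. Reads assigned to genes ranged from 30991988 to 41023908 per library. Levels are given in CPM from recovered reads, and all 4 genes were above 0 in every library and passed the filter on low values. "Fed" here joins DRF ZT4 and ZT8 with NRF ZT16 and ZT20, and "fasted" joins NRF ZT4 and ZT8 with DRF ZT16 and ZT20, at 16 mice each. Statements below that mice of different groups overlap or lie apart describe the values by which the genes were chosen. A share over all genes is given only for fed above fasted NRF mice. Adipocyte markers summed to between 10929 and 42309 CPM in every library, with medians of 30044 CPM in fed and 30073 CPM in fasted mice. Within that list Lep was higher when fed, with medians of 1212 and 350 CPM (limma adjusted p = 4.23e-09). Lower when fed were the progenitor marker Pdgfra, at 93.3 and 112 CPM (limma adjusted p = 0.0102), and the oviduct marker Ovgp1, at 0.353 and 0.467 CPM (limma adjusted p = 0.0373). A pair of DRF libraries, replicate 4 at ZT0 and replicate 1 at ZT8, held 5169 and 509 CPM of uterine and oviduct epithelial markers, against at most 113 CPM in the other libraries. Their adipocyte sums were 15873 and 10929 CPM. A further library, NRF ZT24 replicate 4, held 1509 CPM of liver markers against at most 71.3 CPM elsewhere, and leaving it out, an alternative chosen after seeing the data, changed no call of the 4 genes. Skeletal muscle markers were highest in NRF ZT8 replicate 4 and DRF ZT16 replicate 2, at 464 and 360 CPM against a median of 38.8 CPM, and their part in the results was not tested.

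White adipose tissue takes up glucose and builds fatty acids after a meal, under insulin, and releases fatty acids during fasting. None of the 4 genes belongs to the classical machinery of either state. Mycl encodes L-Myc, a member of the MYC family of basic helix-loop-helix transcription factors that bind DNA together with Max. Dnmt3l encodes a relative of the DNA methyltransferases without catalytic activity of its own, known from germ cells, where it assists Dnmt3a. Hephl1 encodes hephaestin-like 1, a copper-dependent ferroxidase related to hephaestin and ceruloplasmin, which oxidise iron for transport. AA914427 is an unnamed single-exon locus of the annotation class TEC, for which a product is not established.

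In GRCm38 coordinates, Mycl lies on the plus strand at chr4:122995652-123002485 with 5 merged exons. Dnmt3l lies on the plus strand at chr10:78041947-78063622 with 18 merged exons, and its first part overlaps Aire on the opposite strand. Hephl1 lies on the minus strand at chr9:15051841-15112108 with 20 merged exons. AA914427 covers 1166 bases on the plus strand at chr16:17922043-17923208. The libraries did not keep strand, so reads from overlapping genes on opposite strands cannot be told apart.

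Since the levels of these genes are described together, the 250 bases before their annotated starts are shown, as RefSeq gives them for GRCm38.p6 in gene direction. RefSeq windows matched 3 of the 4 genes, AA914427 having none, and Dnmt3l has 3 annotated starts, of which the windows with a motif match are printed. Capitals mark matches, on either strand, to the E-box CACGTG, the forkhead motif GTAAACA, the glucocorticoid element core TGTTCT, the cAMP element core TGACG, the D-box TTANGTAA, the C/EBP motif TTGCGCAA or the ROR and REV-ERB core AGGTCA.
Hephl1, chr9:15112109-15112358, minus strand: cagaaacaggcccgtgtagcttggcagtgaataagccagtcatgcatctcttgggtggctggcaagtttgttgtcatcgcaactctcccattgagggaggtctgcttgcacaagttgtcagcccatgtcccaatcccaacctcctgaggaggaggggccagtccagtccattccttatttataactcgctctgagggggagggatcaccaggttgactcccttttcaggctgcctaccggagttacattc
Mycl, chr4:122995681-122995930, plus strand: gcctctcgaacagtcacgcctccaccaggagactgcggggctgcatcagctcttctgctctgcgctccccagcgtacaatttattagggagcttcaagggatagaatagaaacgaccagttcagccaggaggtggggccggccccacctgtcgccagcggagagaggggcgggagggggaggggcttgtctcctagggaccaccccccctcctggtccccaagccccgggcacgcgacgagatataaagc
Dnmt3l start 1, chr10:78042037-78042286, plus strand: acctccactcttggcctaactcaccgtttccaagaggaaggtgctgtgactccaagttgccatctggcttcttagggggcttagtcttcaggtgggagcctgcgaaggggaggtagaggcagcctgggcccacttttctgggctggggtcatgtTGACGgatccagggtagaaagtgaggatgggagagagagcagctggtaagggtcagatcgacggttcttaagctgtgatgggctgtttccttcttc
Dnmt3l start 2, chr10:78049592-78049841, plus strand: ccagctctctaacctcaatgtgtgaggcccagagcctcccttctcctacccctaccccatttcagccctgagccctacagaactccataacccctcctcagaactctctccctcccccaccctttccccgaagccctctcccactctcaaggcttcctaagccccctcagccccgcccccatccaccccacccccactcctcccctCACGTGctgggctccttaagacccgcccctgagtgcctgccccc
The windows of Hephl1 and Mycl held none of these letters. A cAMP element core stood 96 to 92 bases before Dnmt3l start 1, and an E-box stood 44 to 39 bases before Dnmt3l start 2. Among all 32817 windows of this length, 17.8% held the cAMP element core and 6.02% the E-box. The other shares were 16.1% for the glucocorticoid element core, 14.03% for the ROR and REV-ERB core, 3.16% for the forkhead motif, 2.06% for the D-box and 0.165% for the C/EBP motif. The Mycl window was 63.6% G or C with 14 CG dinucleotides, against medians of 52.4% and 6 over all windows.

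Mycl, the transcription factor, was low in fed and high in fasted fat. Under NRF it was 13.7, 22.8, 9.98 and 17.1 CPM at ZT8 and 45.0, 27.3, 14.9 and 10.01 CPM at ZT12, at the end of the daily fast. It was then 3.39, 3.42, 3.48 and 2.01 CPM at ZT16, 4 h into the feeding window, and 3.66, 1.10, 0.889 and 1.93 CPM at ZT20. The lowest mouse of ZT8 and ZT12 was at 9.98 CPM, and the highest of ZT16 and ZT20 at 3.66 CPM. Around lights on the NRF mice diverged, with 17.05, 1.39, 1.13 and 3.6 CPM at ZT0 and 3.33, 2.02, 25.1 and 6.72 CPM at ZT4. At ZT24 the NRF levels were 4.94, 1.51, 2.52 and 1.95 CPM. A single mouse at ZT0 and another at ZT4 were therefore within or above the range of ZT8.

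Under DRF the highest Mycl levels came at ZT20, with 13.6, 8.99, 6.18 and 19.7 CPM, 8 h after food was withdrawn. They were 3.15, 3.32, 4.04 and 7.24 CPM at ZT0 and 3.59, 7.42, 3.6 and 4.79 CPM at ZT24. In the feeding window the levels were 1.94, 1.70, 1.16 and 0.969 CPM at ZT4, all below those of ZT0. At ZT8 they were 19.7, 2.93, 0.547 and 1.5 CPM, at ZT12 1.92, 3.52, 1.08 and 4.60 CPM, and at ZT16 7.13, 6.41, 3.74 and 2.76 CPM. The high mouse at ZT8 is replicate 1, whose library also held the epithelial markers, and the part of those cells in its Mycl level was not tested. The mean fed level was 0.444 times the fasted level under DRF and 0.197 times under NRF, and the ratios of the medians were 0.236 and 0.227. The DRF ratio of means rested on replicate 1 at ZT8, without which it was 0.179, an alternative chosen after seeing the data. On log2(CPM + 1) the fed-minus-fasted difference was -1.39 (SE 0.402) under DRF and -1.71 (SE 0.402) under NRF. With that pair of libraries left out, the difference over both regimens went from -1.55 to -1.74.

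Dnmt3l ran opposite to Mycl at similarly low levels. In fed DRF mice it was 7.78, 7.32, 9.60 and 12.7 CPM at ZT4 and 5.61, 8.47, 16.4 and 10.6 CPM at ZT8. The level was still 12.3, 6.33, 8.43 and 8.80 CPM at ZT12, when food was withdrawn. It was then 3.65, 2.91, 4.92 and 6.23 CPM at ZT16 and 1.94, 1.34, 3.44 and 1.3 CPM at ZT20. All DRF mice at ZT4, ZT8 and ZT12 except replicate 1 at ZT8 were above all DRF mice at the other times. At ZT0 the DRF values were 2.08, 2.93, 2.31 and 1.13 CPM, and at ZT24 they were 1.29, 1.76, 2.27 and 2.10 CPM.

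Under NRF the Dnmt3l levels were mirrored in time. They were 2.39, 4.24, 2.24 and 9.06 CPM at ZT16, 7.32, 12.5, 16.1 and 10.7 CPM at ZT20, and 3.22, 5.63, 12.4 and 16.4 CPM at ZT24. Lowest were ZT8, with 0.326, 0.486, 2.67 and 0.447 CPM, and ZT12, with 0.481, 1.18, 1.05 and 2.33 CPM. At ZT0 the levels were 1.01, 9.67, 14.1 and 7.56 CPM, and at ZT4 they were 2.38, 7.05, 0.446 and 2.0 CPM. The lowest mouse at ZT0 and the lowest at ZT4 were the same animals that had the highest Mycl at those times. The mean fed level was 3.05 times the fasted level under DRF and 4.08 times under NRF, with differences of 1.41 (SE 0.317) and 1.67 (SE 0.317) on log2(CPM + 1). The ratios of the medians were 2.84 and 6.58, and the NRF ratio of means was 6.44 without replicate 2 at ZT4. Oocyte markers, listed because the gene is known from the germ line, summed to 0.919 to 2.14 CPM in all 56 libraries, with medians of 1.32 CPM in fed and 1.42 CPM in fasted mice.

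Hephl1, the ferroxidase, had the highest level per kilobase of the 3 protein-coding members and ranged from 0.381 to 167 CPM. In NRF mice it was 3.5, 0.381, 7.998 and 1.59 CPM at ZT8 and 2.18, 3.55, 4.89 and 9.09 CPM at ZT12. Once food was given the levels were 31.8, 42.2, 33.4 and 69.9 CPM at ZT16 and 77.1, 105, 81.4 and 77.7 CPM at ZT20. They were 28.5, 58.8, 84.2 and 129 CPM at ZT24 and 7.22, 54.5, 108 and 42.2 CPM at ZT0. By ZT4, 4 h after food was withdrawn, they were 16.7, 16.6, 1.29 and 3.75 CPM.

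In DRF mice Hephl1 was at 11.9 CPM or more at every time point. It was 29.1, 24.4, 18.3 and 12.97 CPM at ZT0 and 109, 104, 112 and 158 CPM at ZT4. The following levels were 52.7, 52.7, 94.8 and 134 CPM at ZT8 and 167, 83.1, 112 and 99.1 CPM at ZT12. After food was withdrawn they were 112, 69.8, 99.1 and 122 CPM at ZT16, which overlapped the fed levels, and 18.7, 35.8, 90.4 and 16.6 CPM at ZT20. At ZT24 they were 22.5, 20.4, 11.9 and 29.8 CPM. The mean fed level was 10.01 times the fasted level under NRF, where the 8 fed and 8 fasted mice did not overlap, and 1.45 times under DRF, where they did. The ratios of the medians were 20.3 and 1.33. Of all 17250 genes tested, 3.74% were higher in fed NRF mice without overlap. The differences on log2(CPM + 1) were 3.56 (SE 0.406) under NRF and 0.76 (SE 0.406) under DRF.

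AA914427, the single-exon locus, followed Hephl1 with more spread between mice. Under DRF it was 18.8, 28.2, 27.99 and 16.5 CPM at ZT0 and 87.4, 63.8, 106 and 98.6 CPM at ZT4, its highest group. It was 22.6, 30.7, 29.8 and 73.8 CPM at ZT8, 70.2, 28.1, 31.5 and 45.8 CPM at ZT12 and 38.9, 28.05, 42.7 and 44.6 CPM at ZT16. The later fed and early fasted groups overlapped each other. At ZT20 the levels were 19.4, 21.6, 40.4 and 6.85 CPM, and at ZT24 12.9, 19.2, 4.5 and 23.7 CPM.

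Under NRF, AA914427 was 30.9, 33.3, 42.7 and 41.5 CPM at ZT16, 49.1, 27.6, 60.4 and 33.3 CPM at ZT20 and 19.7, 52.9, 45.1 and 32.9 CPM at ZT24. In the fast it ranged more widely, with 7.80, 30.4, 0.942 and 2.37 CPM at ZT4, 3.31, 0.761, 22.9 and 0.894 CPM at ZT8 and 2.71, 17.2, 10.5 and 29.4 CPM at ZT12. The ZT0 levels were 2.85, 20.6, 62.8 and 20.9 CPM. Of the 8 mice at ZT4 and ZT8, only replicate 2 at ZT4 overlapped the mice at ZT16 and ZT20, and replicate 4 at ZT12 overlapped them too. The mean fed level was 4.59 times the fasted level under NRF and 2.11 times under DRF, with differences of 2.90 (SE 0.485) and 1.03 (SE 0.485) on log2(CPM + 1). The ratios of the medians were 13.2 and 2.05, and the NRF ratio of means was 7.15 without replicate 2 at ZT4.

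**Figure D1:**
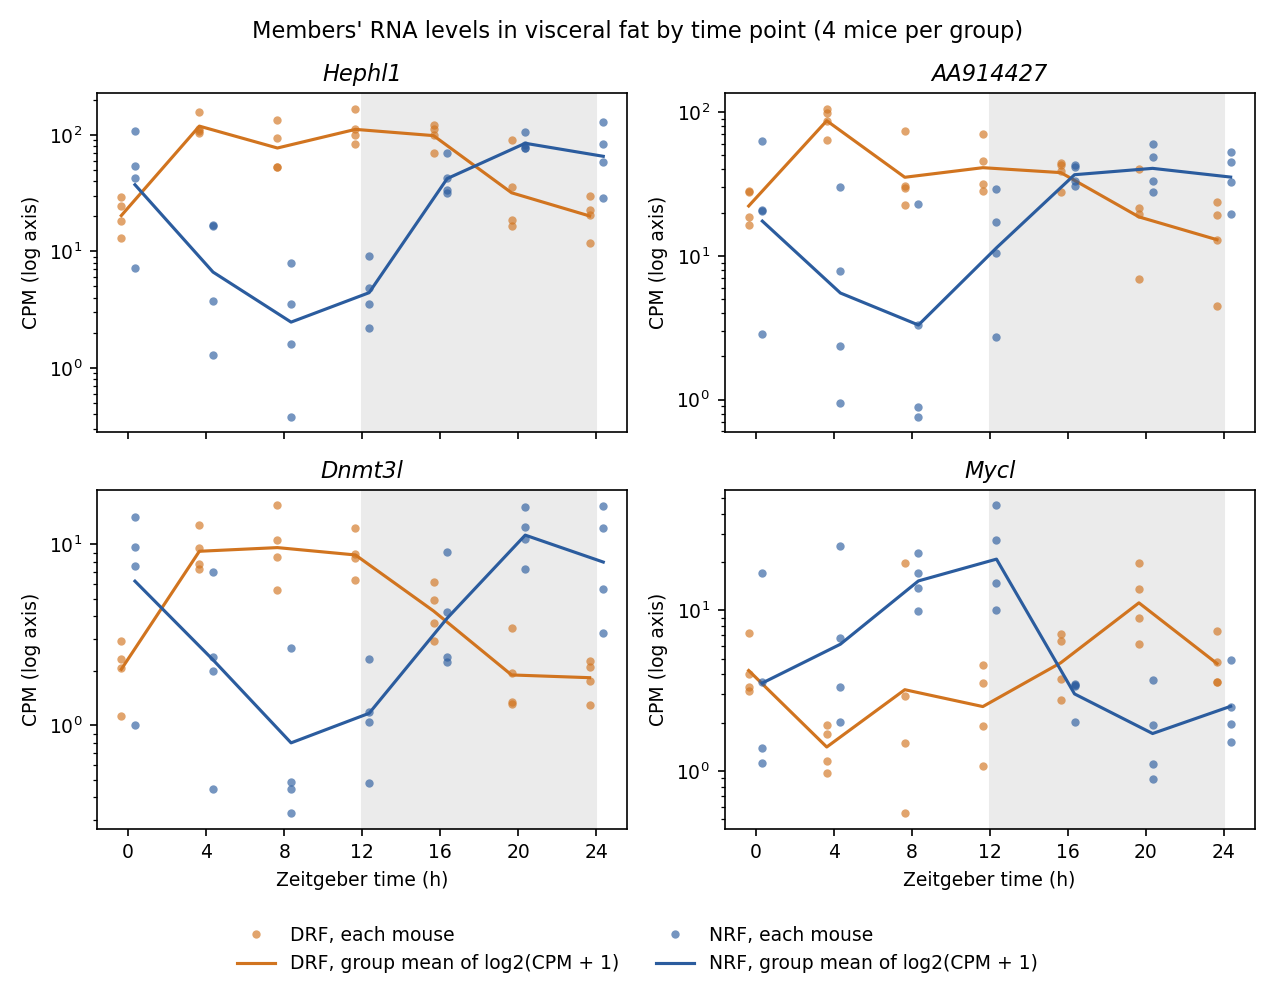
CPM on a log axis against zeitgeber time in hours for the 4 genes, with a point for each mouse (4 per group), lines for the group means of log2(CPM + 1), DRF in orange, NRF in blue and the dark phase shaded. Hephl1 under NRF reached down to 0.381 CPM at ZT8, whereas all DRF mice stayed between 11.9 and 167 CPM.

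Per kilobase of exon, the median level over the 56 libraries was 24.1 CPM for AA914427, 8.03 for Hephl1, 1.19 for Dnmt3l and 0.891 for Mycl. A 24-h cosine fitted in each regimen to log2(CPM + 1) placed the peak of Dnmt3l at ZT8.97 (SE 0.408 h) under DRF and at ZT21.0 (SE 0.597 h) under NRF, 11.9 h apart. The corresponding shifts were 10.5 h for AA914427, 9.99 h for Mycl and 9.79 h for Hephl1. Hephl1 peaked at ZT10.6 (SE 0.748 h) and ZT20.4 (SE 0.404 h), and Mycl at ZT19.1 (SE 0.962 h) and ZT9.10 (SE 0.657 h). The fitted amplitude of Hephl1 was 1.19 (SE 0.213) under DRF and 2.52 (SE 0.277) under NRF, that of Dnmt3l 1.14 (SE 0.122) and 1.37 (SE 0.214). For AA914427 the amplitudes were 0.77 (SE 0.243) and 1.76 (SE 0.347), and for Mycl 0.83 (SE 0.234) and 1.43 (SE 0.245). These fits use the values by which the genes were chosen and were not tested.

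Set by hours after the start of feeding, the DRF and NRF group means of Dnmt3l differed by at most 1.05 on log2(CPM + 1), while those of Hephl1 were farthest apart in the fast. At the start of feeding Hephl1 averaged 21.2 CPM under DRF and 4.93 CPM under NRF, and at 4 h 121 and 44.3 CPM, without overlap at either time. At 12 h Hephl1 averaged 115 CPM at DRF ZT12 and 53.0 CPM at NRF ZT0, with group means 1.55 apart on log2(CPM + 1) and overlap. The ZT24 groups were not part of this alignment. At NRF ZT24, the same clock time as ZT0, Hephl1 averaged 75.1 CPM. Its group mean there was 6.05 on log2(CPM + 1), nearer to the 6.81 of DRF ZT12 than the 5.26 of NRF ZT0. At 8 h Hephl1 averaged 83.5 CPM under DRF and 85.4 CPM under NRF. At 16 h, which is 4 h into the fast, it averaged 101 CPM under DRF and 9.60 CPM under NRF, and at 20 h it averaged 40.4 and 3.37 CPM, without overlap at either time. AA914427 averaged 88.8 and 37.1 CPM at 4 h, without overlap, and 38.6 and 10.4 CPM at 16 h and 22.1 and 6.97 CPM at 20 h, with overlap at both of these times. Mycl differed most at the hour of food presentation, with a mean of 4.44 CPM under DRF and 24.3 CPM under NRF and no overlap. Each of these comparisons sets 4 mice against 4. The share of all genes without overlap at these hours was not counted, so nothing is read from it.

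**Figure D2:**
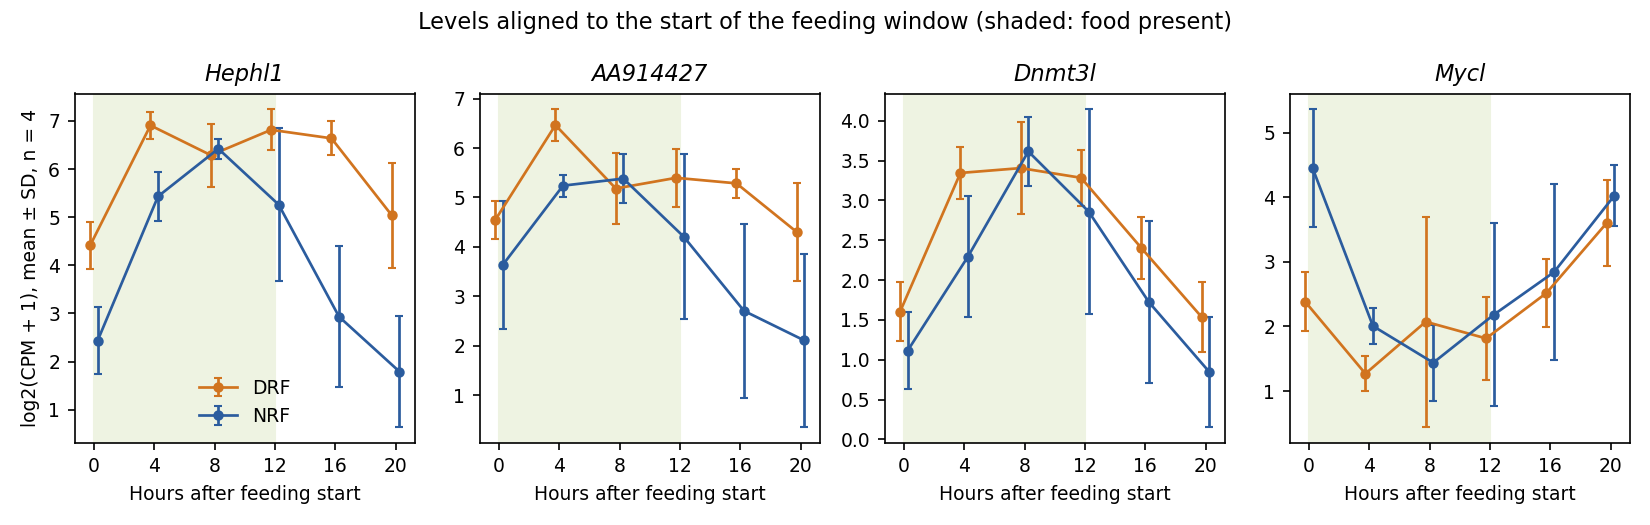
Group means of log2(CPM + 1) with their SD (4 mice each) against hours after the start of the feeding window, for DRF (orange) and NRF (blue), with the hours of food shaded. The Hephl1 curves met at 8 h and stood 3.70 apart at 16 h, whereas those of Dnmt3l stood 0.68 apart there.

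Whether the genes also differed between the regimens as a whole, averaged over the 7 time points, was tested in limma across 17250 genes. Hephl1 was higher under DRF by 1.45 on log2(CPM + 1) (SE 0.217, adjusted p = 1.32e-06), with medians of 76.4 CPM over 28 DRF mice and 30.1 CPM over 28 NRF mice. AA914427 was higher under DRF by 0.93 (SE 0.259, adjusted p = 0.00446), with medians of 29.0 and 25.3 CPM. In this comparison 34.7% of all genes tested passed, and 18% were higher under DRF. By size of difference Hephl1 was at rank 7 and AA914427 at rank 32 among the genes higher under DRF. Without replicate 1 of every group, the adjusted p of AA914427 was 0.0613.

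Dnmt3l did not pass, at 0.21 (95% interval -0.13 to 0.55, adjusted p = 0.361), nor did Mycl, at -0.37 (95% interval -0.80 to 0.06, adjusted p = 0.181). The median over all genes tested was -0.00376. Without the ZT24 groups Dnmt3l passed, at 0.52 (adjusted p = 0.0244), and without the DRF libraries with epithelial markers Mycl passed, at -0.51 (adjusted p = 0.0285). Without replicate 1 of every group Dnmt3l stood at 0.013 (adjusted p = 0.964), and without replicate 3 Mycl stood at -0.22 (adjusted p = 0.517). The axis by which the genes were chosen leaned the same way as Hephl1, with a mean score of 4.29 in DRF and -4.29 in NRF libraries, so this test is not wholly independent of the choice. Adipocyte markers had lower sums under DRF, with a median of 26421 CPM against 30680 CPM under NRF. The sums of other marker lists also differed, with medians under DRF and NRF of 419 and 254 CPM for blood, 297 and 380 CPM for mesothelium, 53.4 and 34.0 CPM for skeletal muscle, 33.4 and 22.4 CPM for liver and 22.0 and 12.0 CPM for pancreas, the last almost wholly Cela1. Also lower under DRF were the macrophage sums, at 751 and 865 CPM, and those of adipose progenitors, at 257 and 305 CPM. The uterine and oviduct epithelial sums had medians of 47.1 CPM under DRF and 63.1 CPM under NRF. The part of these cells in the regimen differences was not tested. In bulk tissue, fewer cells of a type and less RNA per cell cannot be told apart.

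The contrast of day (ZT4 and ZT8) with night (ZT16 and ZT20) over both regimens equals the difference between the fed-minus-fasted changes under DRF and NRF divided by 2. It asks whether the change with feeding had the same size under both regimens. Hephl1 was lower by day, at -1.40 (SE 0.287, adjusted p = 0.000419), and AA914427 likewise, at -0.94 (SE 0.343, adjusted p = 0.0461). Among all genes tested 19.9% passed, and 9.86% were lower by day. The AA914427 call was lost under 7 of its alternatives, including each of the 4 in which the mice of a replicate number were left out, with adjusted p up to 0.118. Dnmt3l stood at -0.13 (95% interval -0.58 to 0.32, adjusted p = 0.723) and Mycl at 0.16 (95% interval -0.41 to 0.73, adjusted p = 0.735). The mean score of the axis was -3.99 by day and 6.11 by night, again in the direction of Hephl1 and AA914427. The genes were chosen on that axis, so these p-values are not independent of the choice and support nothing beyond the differences themselves.

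**Figure D3:**
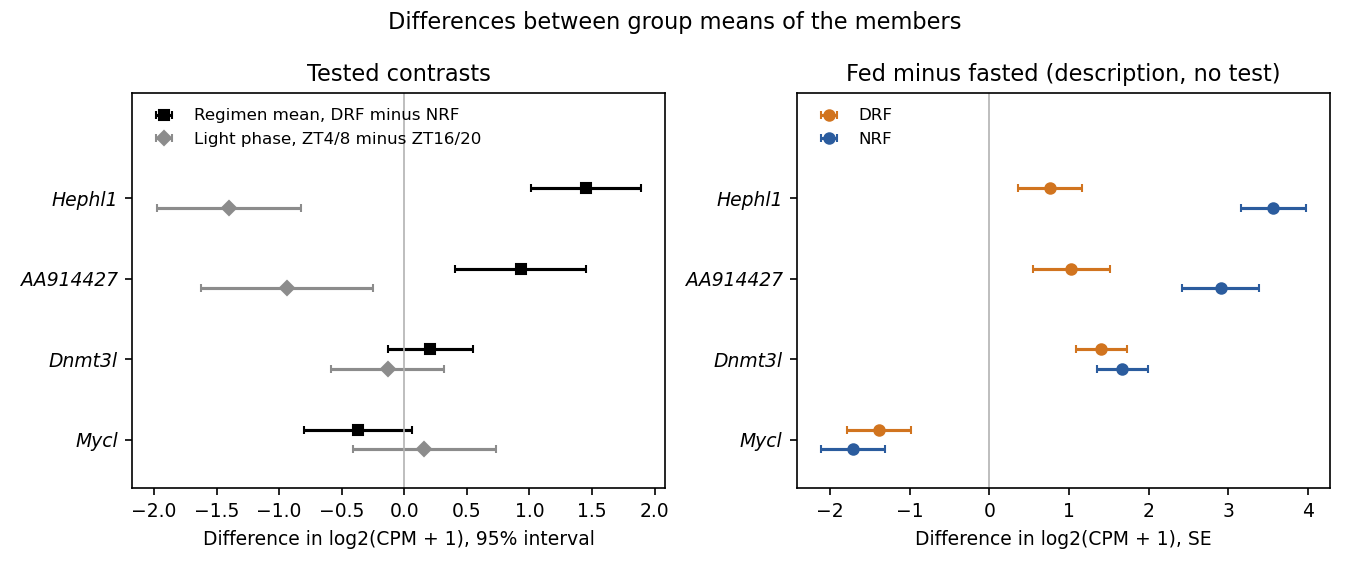
Differences in log2(CPM + 1) for the 4 genes, with the tested regimen mean and light phase contrasts and their 95% intervals on the left and the untested fed-minus-fasted differences with their SE for DRF (orange) and NRF (blue) on the right. The Hephl1 differences were 0.76 under DRF and 3.56 under NRF, while those of Dnmt3l were 1.41 and 1.67.

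ZT0 and ZT24 are the same clock time in separate mice, and their comparison shows how well a level was repeated. In limma 0 of the 8 comparisons passed, and 0 had an unadjusted p under 0.05. The exact two-sided permutation p-values ran from 0.171 to 1, with 0.0286 as the smallest that 4 against 4 allows. The widest differences were 0.98 for AA914427 under NRF (95% interval -0.40 to 2.36) and 0.79 for Hephl1 under NRF (95% interval -0.36 to 1.95). Over all genes tested 0.0986% passed under DRF and 0.284% under NRF.

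Some mice deviated from their group mean in all 4 genes. An example is NRF ZT0 replicate 1, in which Hephl1 lay 2.22, AA914427 2.26 and Dnmt3l 1.85 below the group mean on log2(CPM + 1) while Mycl lay 1.99 above it. NRF ZT4 replicate 3 had the same pattern, with Hephl1 at 1.29 CPM, AA914427 at 0.942 CPM, Dnmt3l at 0.446 CPM and Mycl at 25.1 CPM. The opposite pattern was seen in NRF ZT0 replicate 3, with Hephl1 at 108 CPM and Mycl at 1.13 CPM.

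Over the 56 mice the deviations of Hephl1 correlated with those of AA914427 at r = 0.835 (rho = 0.728), with those of Dnmt3l at r = 0.824 (rho = 0.763) and with those of Mycl at r = -0.768 (rho = -0.759). Without the 2 mice farthest from the median of the first gene of each pair, r was 0.790, 0.773 with Dnmt3l as the first gene, and -0.767 with Mycl as the first gene. Within the NRF mice the values were 0.850, 0.878 and -0.889, and within the DRF mice 0.789, 0.637 and -0.571. The weakest pair was Mycl with AA914427, at r = -0.643, or -0.349 within the DRF mice and -0.803 within the NRF mice. Dnmt3l correlated with AA914427 at r = 0.716 and with Mycl at r = -0.776. Hephl1 and AA914427 deviated in the same direction in 38 of the 56 mice. These correlations are descriptions, since the axis that chose the genes also holds variance between mice of a group and the points share libraries. The summed pancreas markers moved with them, at r = 0.791 with Dnmt3l, 0.727 with Hephl1, 0.512 with AA914427 and -0.643 with Mycl. That sum was almost wholly Cela1, at 5.42 to 33.9 CPM, while Cpa1, a defining pancreas gene, was at 0 in 32 of 56 libraries and at most 0.112 CPM. The part of Cela1 or its source in the correlations was not tested. The other marker lists had r between -0.391 and 0.316 with the 4 genes.

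**Figure D4:**
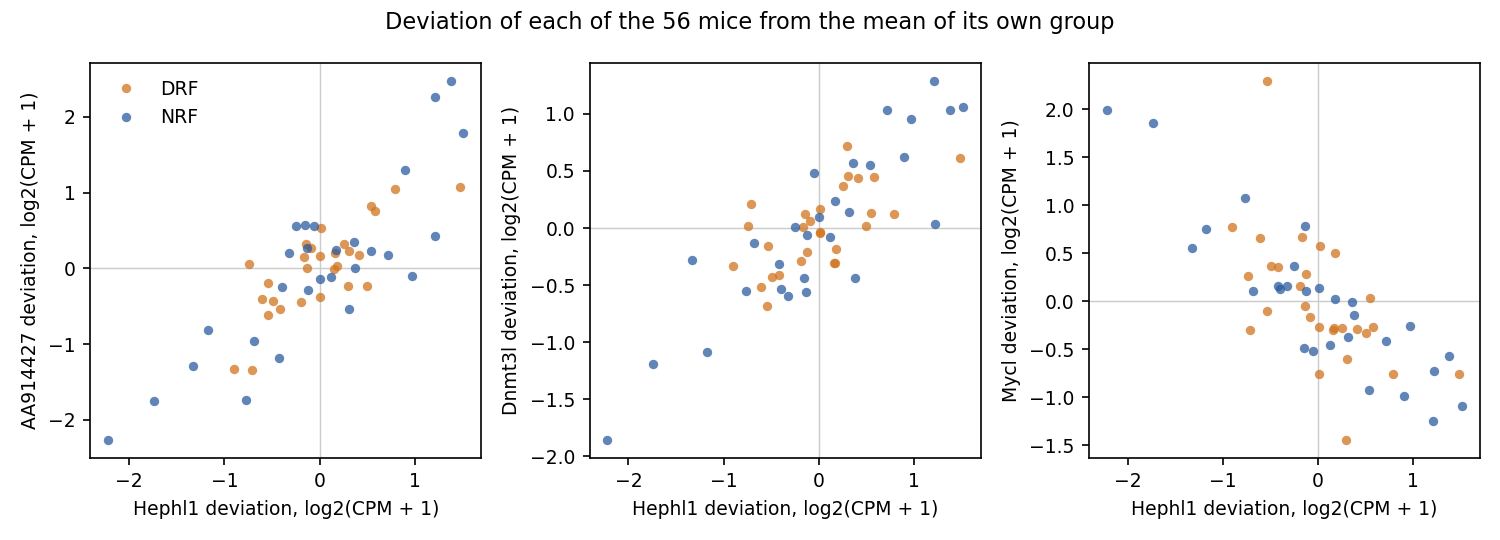
Deviation of each of the 56 mice from the mean of its own group in log2(CPM + 1), Hephl1 on the horizontal axes against AA914427, Dnmt3l and Mycl on the vertical axes, DRF in orange and NRF in blue. Mice low in Hephl1 tended to be low in AA914427 (r = 0.835) and Dnmt3l (r = 0.824) and high in Mycl (r = -0.768). Within the DRF mice these r were 0.789, 0.637 and -0.571.

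Of the total variance of Hephl1 over the 56 mice, 53.6% was regimen by time and 17.2% lay between mice of a group. For Dnmt3l these shares were 68.7% and 28.3%, for Mycl 46.7% and 39.0%, and for AA914427 41.6% and 37.7%. The regimen-by-time share is what the genes were chosen by, so nothing is read from its size.

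AA914427 ends 2015 bases from Slc25a1, which encodes the mitochondrial citrate carrier and is transcribed from the opposite strand toward it. Slc25a1 ranged from 287 to 4232 CPM and was higher in fed mice by 0.68 (SE 0.202, adjusted p = 0.00653). Its difference was 0.29 (SE 0.285) under DRF and 1.06 (SE 0.285) under NRF, and the test between these did not pass (adjusted p = 0.177). Over the 14 group means both genes correlated at r = 0.894, and the deviations of the 56 mice at r = 0.904 (rho = 0.833, and r = 0.876 without the 2 mice farthest in AA914427). The reads of AA914427 were not a fixed share of those of Slc25a1, at 1.39% to 3.15% in fed mice (median 2.35%) and 0.143% to 2.06% in fasted mice (median 1.04%). The group means of AA914427 spanned 4.36 on log2(CPM + 1) and those of Slc25a1 2.08. Whether reads reaching past the end of Slc25a1 contribute to the locus was not tested.

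Of the 24 nearest genes, 3 on each side of each member, 11 were tested. Of these, 3 were higher in fed and 1 in fasted mice, with a median difference of 0.04, against 36.5% called and a median of -0.000348 over all genes tested. Trit1, which modifies transfer RNA and begins 14112 bases beyond Mycl on the same strand, was lower in fed mice, at a difference of -1.08 (SE 0.103, adjusted p = 1.21e-11). Next to Dnmt3l, Icosl, a ligand of T cell costimulation, was higher when fed by 0.50 (SE 0.0795, adjusted p = 1.3e-06), and Pfkl, a phosphofructokinase of glycolysis, by 0.48 (SE 0.140, adjusted p = 0.00493). The Pfkl difference was 0.09 under DRF and 0.87 under NRF, and these differed (adjusted p = 0.0395). Panx1 next to Hephl1 stood at 0.07 (adjusted p = 0.522). Without replicate 4 of every group, Pfkl (0.33, adjusted p = 0.143) and Slc25a1 (0.52, adjusted p = 0.122) no longer passed.

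The 13 genes listed as the MYC network include the paralogs of Mycl, its partner Max and other factors, among them ChREBP and its partner Mlx. In fed mice 7 were higher and 2 lower, with a median difference of 0.16. Without replicate 1 of every group 4 were higher, and without replicate 2, 3 or 4 there was 1 lower. Over all genes tested 19% were higher and 17.4% lower, or 3281 and 3008 genes. With total recovered reads as library size the balance turned, to 2647 higher and 3589 lower, and 5 MYC network genes were higher. Mlx, the partner of ChREBP, was higher by 1.16 (SE 0.144, adjusted p = 8.15e-09) with medians of 79.4 CPM in fed and 33.8 CPM in fasted mice. Mlxipl, which encodes the glucose-responsive factor ChREBP itself, was higher by 0.95 (SE 0.199, adjusted p = 0.000138) over both regimens, at 0.02 under DRF and 1.88 under NRF, and the 2 changes differed (adjusted p = 0.000698). Max, with which MYC factors bind DNA, was higher by 0.55 (SE 0.0551, limma adjusted p = 3.59e-11), at 0.54 under DRF and 0.57 under NRF. Among the paralogs, Mycn was higher when fed by 0.81 (SE 0.249, adjusted p = 0.00794) at medians of 1.59 and 0.796 CPM, and Myc did not pass, at -0.22 (SE 0.102, adjusted p = 0.0854). Myc stood at 0.12 under DRF and -0.57 under NRF, and these changes differed (adjusted p = 0.0128). Mycn thus differed in the direction opposite to that of Mycl. Without replicate 1 of every group Mycn no longer passed (0.52, adjusted p = 0.109) and Myc did (-0.32, adjusted p = 0.0186), and Myc also passed without the DRF libraries with epithelial markers (-0.30, adjusted p = 0.00465).

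Of the 13 DNA methylation genes tested, 2 were higher and 0 lower in fed mice in limma and 11 did not pass over both regimens, with a median of 0.04. Of these 11, Mbd1, a reader of methylated DNA, stood at -0.45 under DRF and 0.24 under NRF (adjusted p of the difference 7.88e-06), and its relative Mbd2 at 0.17 and -0.23 (adjusted p of the difference 0.000217). At an unadjusted p under 0.05, 2 of the 13 were lower and 3 higher. At an adjusted p under 0.05, 19% of all genes tested were higher and 17.4% lower. Dnmt3a, the catalytic partner of Dnmt3l, was higher by 0.40 (SE 0.0581, adjusted p = 2.11e-07), with medians of 59.6 CPM in fed and 45.1 CPM in fasted mice. Dnmt3b stood at 0.04 (SE 0.0867, adjusted p = 0.799). Tdg, a glycosylase acting in demethylation, was higher by 0.23 (SE 0.0515, adjusted p = 0.000326).

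Of 21 iron and copper genes 19 were tested, of which 4 were higher and 5 lower in fed mice, with a median of 0.03. Over all genes tested 19% were higher and 17.4% lower. Of the relatives of Hephl1, Heph was lower when fed, at -0.23 (SE 0.0727, adjusted p = 0.00964), and stood at -0.40 under DRF and -0.06 under NRF. Cp, ceruloplasmin, was lower over both regimens, at -0.23 (SE 0.0773, adjusted p = 0.0154), but stood at -0.54 under DRF and 0.08 under NRF. The change with feeding differed between the regimens for Cp (adjusted p = 0.00355), and for Heph that test did not pass (adjusted p = 0.0885). Slc39a8, a metal importer, was lower when fed, at -0.51 (SE 0.173, adjusted p = 0.0165). The metalloreductase Steap3 was higher by 0.41 (SE 0.0578, adjusted p = 1.35e-07), and its relative Steap4 lower, at -0.40 (SE 0.120, adjusted p = 0.00636). Steap3 stood at 0.58 under DRF and 0.24 under NRF, and these changes differed (limma adjusted p = 0.0280). Without replicate 1 of every group, 1 gene of this list was lower in fed mice in place of 5, with Heph at -0.13 (adjusted p = 0.126), Cp at -0.11 (adjusted p = 0.324) and Slc39a8 at -0.45 (adjusted p = 0.0631). Calls were also lost without replicate 4 for Heph (adjusted p = 0.0518) and Steap4 (adjusted p = 0.0530), without replicate 3 for Cp (adjusted p = 0.0815) and without replicate 2 for Slc39a8 (adjusted p = 0.110).

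Genes with a known place in either state were set beside the members. Of 10 genes listed as lipogenic 6 were higher in fed mice and 0 lower, with a median of 0.96. Over all genes tested 19% were higher and 17.4% lower. Fasn, Acaca, Elovl6 and Me1 did not pass (limma adjusted p = 0.140, 0.211, 0.0530 and 0.0884). The largest differences were those of hexokinase Hk2 at 1.58 (SE 0.189, adjusted p = 3.12e-09), Insig1, a sterol-regulated brake on SREBP, at 1.54 (SE 0.170, adjusted p = 4.45e-10) and the desaturase Scd2 at 1.54 (SE 0.270, adjusted p = 8.77e-06). These values join unlike regimens, since the median of the lipogenic list was 0.18 under DRF (range -0.20 to 1.22) and 1.67 under NRF (range 0.98 to 2.63). Fasn, fatty acid synthase, stood at -0.07 under DRF and 1.27 under NRF, and the test of that difference did not pass (adjusted p = 0.127). Of the 10 lipogenic genes 5 passed it, against 19.9% of all genes tested. Over all genes tested the medians were 0.0179 and -0.0143. Of 10 fasting genes 7 were lower and 0 higher, with a median of -0.63, and by regimen the list stood at -0.84 (DRF, range -2.73 to -0.05) and -0.57 (NRF, range -3.98 to 1.64). Fkbp5, a glucocorticoid-induced co-chaperone, stood at -1.90 under DRF and 1.64 under NRF, and the 2 changes differed (adjusted p = 4.41e-10), so it is among the genes not called over both regimens. At an unadjusted p under 0.05 in limma these counts of 0 were also 0. Pck1, which makes phosphoenolpyruvate for glycerol synthesis, stood at -3.36 (SE 0.317, adjusted p = 8.88e-12), Irs2, an insulin receptor substrate, at -1.59 (SE 0.137, adjusted p = 9.57e-13) and Angptl4, an inhibitor of lipoprotein lipase, at -1.58 (SE 0.159, adjusted p = 4.43e-11). By regimen Angptl4 stood at -2.17 under DRF and -0.99 under NRF, and these changes differed (adjusted p = 0.00626). Over both regimens the members stood at 2.16 for Hephl1, 1.97 for AA914427, 1.54 for Dnmt3l and -1.55 for Mycl.

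**Figure D5:**
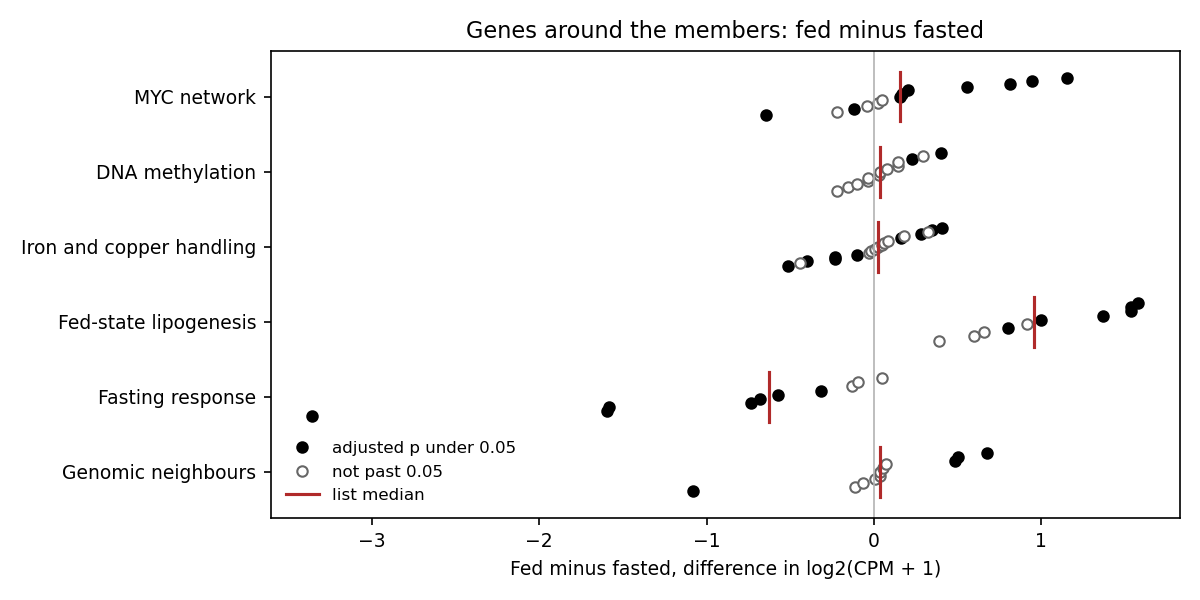
Fed-minus-fasted difference in log2(CPM + 1) of each tested gene in 6 lists (filled, adjusted p under 0.05; open, not past it), with the list median as a red line. The medians were 0.96 for lipogenesis and -0.63 for the fasting response, and between 0.03 and 0.16 for the other lists.

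Among 14285 genes with a mean of at least 1 CPM, the profiles most like that of Hephl1 over the 14 group means were those of Parm1 (r = 0.985), Scd2 (r = 0.981), Prelid3a (r = 0.977), Necab3 (r = 0.977) and Pcyox1 (r = 0.976). For AA914427 they were Ank (r = 0.962), Sbk1 (r = 0.960), Rims4 (r = 0.960), Dag1 (r = 0.959) and Golph3 (r = 0.952). Dnmt3l was most like Gm6277 (r = 0.981), Rpl7l1 (r = 0.979), Rab32 (r = 0.978), Sc5d (r = 0.976) and Polr1e (r = 0.974). The genes nearest to Mycl were Gm8990 (r = 0.964), Net1 (r = 0.958), Setd4 (r = 0.952), Irf2 (r = 0.950) and Gbp11 (r = 0.944). All of these correlations are across group means that share the same libraries, and they carry no test. Scd2, a desaturase of fatty acid synthesis, had group means from 7.13 to 11.37 on log2(CPM + 1), beside 1.79 to 6.91 for Hephl1.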

How the data were processed

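RNA of visceral fat from 56 mice was sequenced by the authors, and each library was placed in its group by its label. The submitters' processing notes name HISAT2 2.0.5, featureCounts 1.5.0-p3 and mm10, and the kit kept no strand. The authors deposited 1 value per gene, named TPM, which by its values is a score: log2(CPM + 1) divided by exon length and rescaled per library. Whole reads were recovered from the steps between low values. Among 1262086 values of up to 10000 reads, 100% came within 0.02 of an integer (4% by chance), although 901 gene lengths were themselves taken from the values. Pcx and Scd1 gave no unique length and were left out. The members use annotated lengths. Effective library sizes of 31.8 to 47.3 M reads scaled the CPM, with reads per library setting the precision.

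Genes with at least 0.5 CPM in at least 4 libraries (17250) entered limma 3.58.1 in R 4.3.3, with 14 group means, an intensity trend, a pseudocount of 1 and Benjamini-Hochberg adjustment at 0.05. A fold change on log2(CPM + 1) understates that of low genes. The plan named recovered CPM, and no count model was used because the deposited unit is a score. The program was tested on simulated data. Cosine fits, components and figures used Python 3.11.15, numpy 2.4.6, pandas 2.3.3, scipy 1.17.1 and matplotlib 3.10.9. Genes named beside the members are up to 3 called genes of each list with the largest fed-minus-fasted difference, the closest paralogs, the 5 most alike genes per member, and neighbours that passed. A gene of the DNA methylation list is not reported here and was left out of its counts. Other genes named were chosen after their values were seen. The members, lists and tests were chosen with earlier results of these data known. Alternatives covered the pseudocount, library scaling, the filter, the replicate number as a block, a cosine fit, ZT24, the pair of libraries with epithelial markers and each replicate number.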

Additional observations from a re-analysis of the deposited data

Results flagged for a closer look

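Of 56 groups of 4 mice (4 genes in 14 groups), 2 held a mouse far from the other 3 by Dixon's ratio of its gap to the group's range on log2(CPM + 1). Chance alone flags about 1 in 20 groups. Mycl in NRF ZT16 replicate 4 was at 2.01 CPM against 3.39 to 3.48 CPM in the others (ratio 0.947). Dnmt3l in NRF ZT8 replicate 3 was at 2.67 CPM against 0.326 to 0.486 CPM in the others (ratio 0.888), and the same mouse had the highest Hephl1 and AA914427 and the lowest Mycl of its group.

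The fed-minus-fasted change differed between the regimens for Hephl1, by -2.80 on log2(CPM + 1), DRF minus NRF (limma adjusted p = 0.000419), and for AA914427, by -1.87 (limma adjusted p = 0.0461). These are the light phase contrasts of the report multiplied by 2. The genes were chosen on an axis that leaned the same way, so these p-values are not independent of the choice. The AA914427 call was lost under 7 of its alternatives, with adjusted p up to 0.118.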

How the results depend on the processing

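The regimen and light phase calls of Hephl1 passed in every alternative, with adjusted p up to 0.0182 for the light phase. The light phase call of AA914427 was lost without the filter on low genes (-0.94, adjusted p = 0.0680), without both DRF libraries with epithelial markers (-0.89), in the cosine fit (-1.08) and without each replicate number (-1.04 to -0.83, adjusted p 0.0883 to 0.118). Its regimen call was lost without replicate 1 (range 0.72 to 1.10 over the 4 replicate numbers left out). Regimen differences gained a call for Mycl without both DRF libraries (-0.51) and for Dnmt3l without ZT24 (0.52). They were smallest without replicate 3 for Mycl (-0.22) and without replicate 1 for Dnmt3l (0.013). The light phase value of Mycl, not called, turned to -0.0315 without both DRF libraries. With each replicate number left out, ZT24 minus ZT0, not called in any fit, ran from -0.16 to 0.33 for Mycl under DRF, -0.723 to 0.0535 for Mycl under NRF, -0.318 to 0.0334 for Dnmt3l under DRF and -0.39 to 0.18 for Hephl1 under DRF. Without NRF ZT24 replicate 4, the library with liver markers, ZT24 minus ZT0 of Dnmt3l under NRF, not called, turned to -0.0107. The causes of these changes were not tested, and some of these fits also had fewer mice.

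Leaving out each replicate number gave 4 to 6 MYC network genes higher when fed and 1 to 2 higher when fasted, 1 to 4 iron and copper genes higher when fasted, and 1 to 3 neighbours higher when fed. DNA methylation genes higher when fasted numbered 1 with total reads as library size and 2 without both DRF libraries, against 0. Scaling by total reads moved the median DRF-minus-NRF difference of all genes by 0.0476, and gave 2647 genes higher and 3589 lower when fed. Replicate numbers name different mice, and 133 of 364 same-number pairs had deviations correlated over 0.1, with 17 of 56 libraries closest to their own number. The mean r was 0.0402 for same-number and -0.0119 for different-number pairs. How many different-number pairs were over 0.1 was not counted, so the first count has no reference. With the replicate block, 3402 genes were higher when fed and 3112 when fasted (3281 and 3008 without it), and DNA methylation genes higher when fasted numbered 1. The block changed no call of the members. Of 22 named genes that are not members and were followed through the alternatives, 14 kept their side of the threshold under each of them. Other named genes, among them Mbd1, Mbd2, Fasn, Fkbp5 and Panx1, were not followed in this way.

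Each mouse of a regimen was also left out of the ratios of mean fed to mean fasted CPM, chosen after seeing the data. The ratio moved over 1.5 times for Mycl under DRF without ZT8 replicate 1 (0.179) and for Dnmt3l (6.44) and AA914427 (7.15) under NRF without ZT4 replicate 2.

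The lowest library held 14 reads of Dnmt3l, 18 of Hephl1, 20 of Mycl and 36 of AA914427. What depth adds to the errors was not tested.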
